A study of Mus musculus with 53 samples.

Results

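The response of macrophages to interleukin-4 (IL-4) was compared between 6 h and 24 h of stimulation, to find which transcript responses came late, faded or turned round. For each gene locus the change of response was the difference IL-4 minus control at 24 h, minus the same difference at 6 h, in mean log2(FPKM + 1), where FPKM counts sequenced fragments relative to transcript length and to the size of the library. A positive value therefore means that the response moved upwards between the 2 times, and a negative value that it moved downwards. It was computed from 15 wild-type (WT) samples of the 53 in the series, namely 4 controls and 4 IL-4 samples at 6 h, and 4 controls and 3 IL-4 samples at 24 h (replicates 2, 3 and 4; replicate 1 was not analysed here). Of 23847 loci, 10929 reached 1 FPKM in at least 1 of the 15 samples and were tested.

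The cells were bone marrow-derived macrophages (BMDMs) of C57BL/6 mice 8 to 12 weeks old, either WT or lacking Stat6 in the whole body (Stat6-/-), grown for 6 days with L929 cell supernatant as the source of the macrophage growth factor. They then received IL-4 at 20 ng/ml for 1, 3, 6 or 24 h, and control cells of each time received none. The series holds 35 WT samples and 18 Stat6-/- samples in 18 groups, with 2 samples in each Stat6-/- group. The labels number the samples of a group but do not tie the numbers to animals across groups, so the p-values measure the spread between these samples.

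IL-4 binds a receptor that carries JAK kinases, and these phosphorylate STAT6, which pairs up, enters the nucleus and binds DNA. The resulting state is known as alternative polarization and is recognized by secreted proteins such as RELM-alpha and Ym1. STAT6 also switches on its own brakes, the SOCS proteins, and many inflammatory genes are lowered in the same cells.

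All 8 macrophage markers examined, among them Adgre1 (listed as Emr1), Csf1r and Cd68, reached 1 FPKM, and their summed level was 3859 to 4309 FPKM in the 6 h controls, 3252 to 3580 with IL-4 at 6 h, 3785 to 4310 in the 24 h controls and 2850 to 2911 with IL-4 at 24 h. Emr1 itself had a response of 0.15 at 6 h and -1.20 at 24 h, on the log2 scale. Neutrophil granule genes were detected too (9 of 10 in the tables), with sums of 355 to 502.1 and 360.6 to 451.9 FPKM in the control and IL-4 samples of 6 h, and 472.2 to 659.7 and 249.4 to 358.7 at 24 h. Markers of T or NK cells, mast cells or basophils, erythroid cells and fibroblasts stayed below 1 FPKM in all 15 samples, the mast cell gene Tpsb2 and the B cell gene Pax5 were listed at 0, and Cd79b was the 1 B cell marker above 1 FPKM. In bulk RNA, fewer cells of a type and less RNA per cell cannot be told apart. Read depth was not given; relative depth, estimated from 7640 loci, ranged from 0.847 to 1.49 over the 15 samples.

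The response of 676 loci changed between 6 h and 24 h (6.19% of those tested), with an adjusted p under 0.05 in limma and at least a 2-fold change. Of these, 318 moved upwards (2.91%) and 358 downwards (3.28%), while the median change over all tested loci was -0.07. Late responses, called at 24 h but not at 6 h, made up the largest group, with 160 late rises and 137 late falls. Faded responses, called at 6 h but not at 24 h, numbered 177 (121 rises and 56 falls). A further 21 responses kept their direction and grew, 19 kept it and shrank, 5 turned round with a call at both times, and 157 were called at neither time although their change was. In all 157 of the last kind the 6 h and 24 h responses had opposite signs, which a 2-fold change requires when both responses are under 2-fold. At the single times, 618 loci were called at 6 h (5.65%) and 947 at 24 h (8.67%), with 258 called at both. IL-4 and control samples did not overlap at 46.4% of the loci at 6 h and at 64.9% at 24 h, so that a lack of overlap was common.

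**Figure D1:**
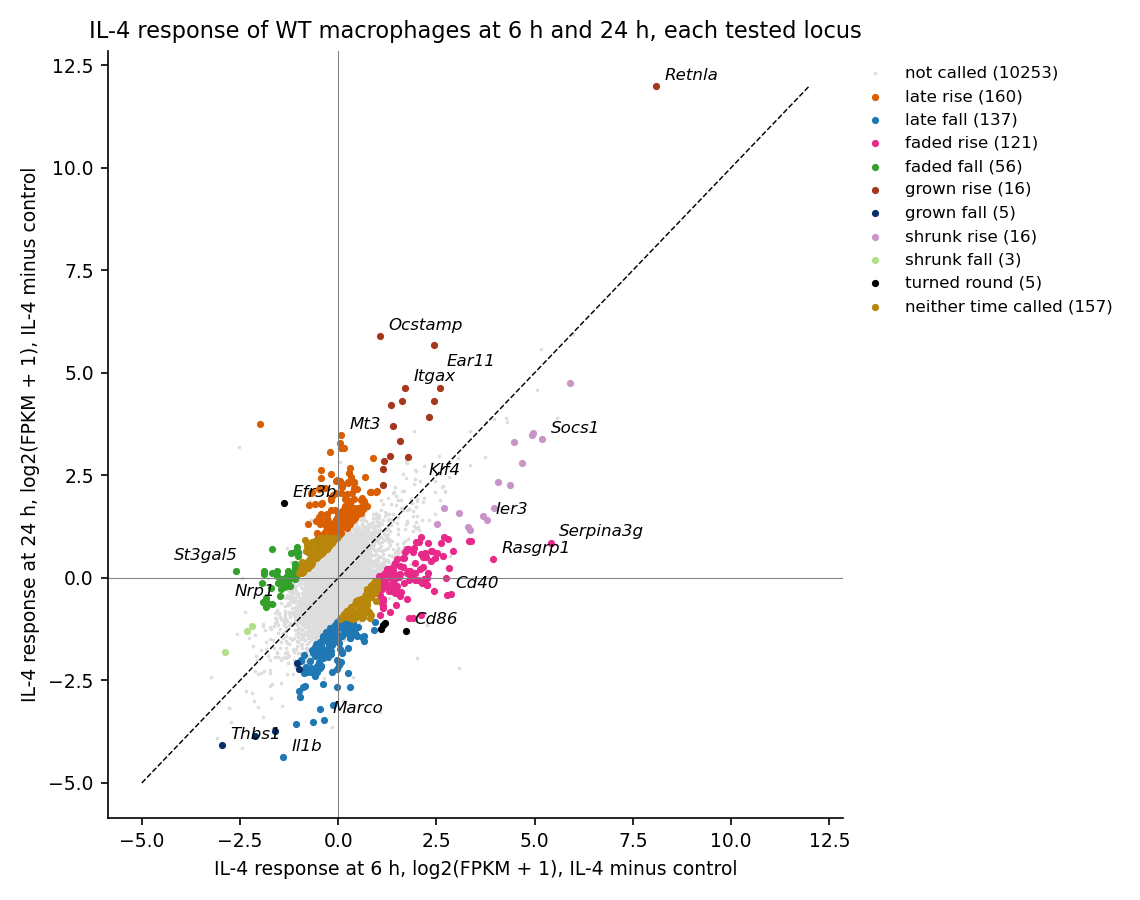
Response of each tested locus to IL-4 at 6 h (horizontal axis) and at 24 h (vertical axis), in mean log2(FPKM + 1) of IL-4 minus control samples, coloured by the kind of change. The 676 loci with a called change lie off the diagonal, late responses along the vertical axis and faded ones along the horizontal axis.

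Of the genes named at the outset, Ocstamp and Retnla rose further from 6 h to 24 h, Il1b fell late, and Klf4 was not called. Ocstamp (chromosome 2, 165395450 to 165400394 in mm10, a gene locus spanning its exons and introns) encodes a membrane protein needed for macrophages and osteoclast precursors to fuse. Its control samples read 0.0814 to 0.205 FPKM at 6 h and 0.0785 to 0.13 at 24 h. With IL-4 it read 1.09, 1.46, 1.07 and 1.9 FPKM at 6 h and 103.9, 47.5 and 55.1 at 24 h. IL-4 samples thus lay above the controls at both times, with no overlap, and the 24 h samples lay far above the 6 h samples. Its response went from 1.07 ± 0.14 (SE) to 5.90 ± 0.16, a change of 4.83 ± 0.21 (adjusted p = 6.75e-20). The 24 h value of replicate 2 was the highest of the 3, and without that sample the gene remained called.

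Retnla (chromosome 16, 48842552 to 48844461), which encodes the secreted protein RELM-alpha, was listed at 0 in 3 of the 4 controls of 6 h and in 2 of those of 24 h, the others reading 2.16, 0.0723 and 0.227 FPKM. IL-4 brought it to 264.7, 289.6, 449.3 and 512.3 FPKM at 6 h and to 3441, 5041 and 4762 at 24 h. The 2 IL-4 groups did not overlap, and the response in log2(FPKM + 1) grew by 3.89 ± 0.42 (adjusted p = 2.3e-09). It had already risen to 0.50 at 1 h and 4.99 at 3 h.

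Il1b (chromosome 2, 129364580 to 129371120), which encodes the inflammatory cytokine IL-1beta, read 38.7, 40.2, 27.5 and 19.1 FPKM in the 6 h controls and 12.1, 12.7, 9.54 and 9.04 with IL-4. At 24 h the controls read 48.9, 28.6, 34.6 and 19.6, and the IL-4 samples 0.68, 0.29 and 0.756. Control and IL-4 samples were apart at both times, and the lowest values of all were those of IL-4 at 24 h. The response of -1.40 ± 0.61 at 6 h did not pass the test (adjusted p = 0.0612), that of -4.37 ± 0.66 at 24 h did, and the change was -2.96 ± 0.90 (adjusted p = 0.011). Its naming as a late fall thus rests on a 6 h fall that missed the threshold, and at 3 h its response was -1.92.

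Klf4 (chromosome 4, 55527137 to 55532475), a zinc finger transcription factor, kept its response. The IL-4 samples read 13.3, 14.3, 15.8 and 14.7 FPKM at 6 h and 16.9, 10.6 and 9.40 at 24 h, against 2.37 to 3.05 and 1.46 to 1.62 in the controls. The IL-4 groups of the 2 times overlapped, and the change of 0.29 ± 0.20 did not pass the test (adjusted p = 0.315).

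**Figure D2:**
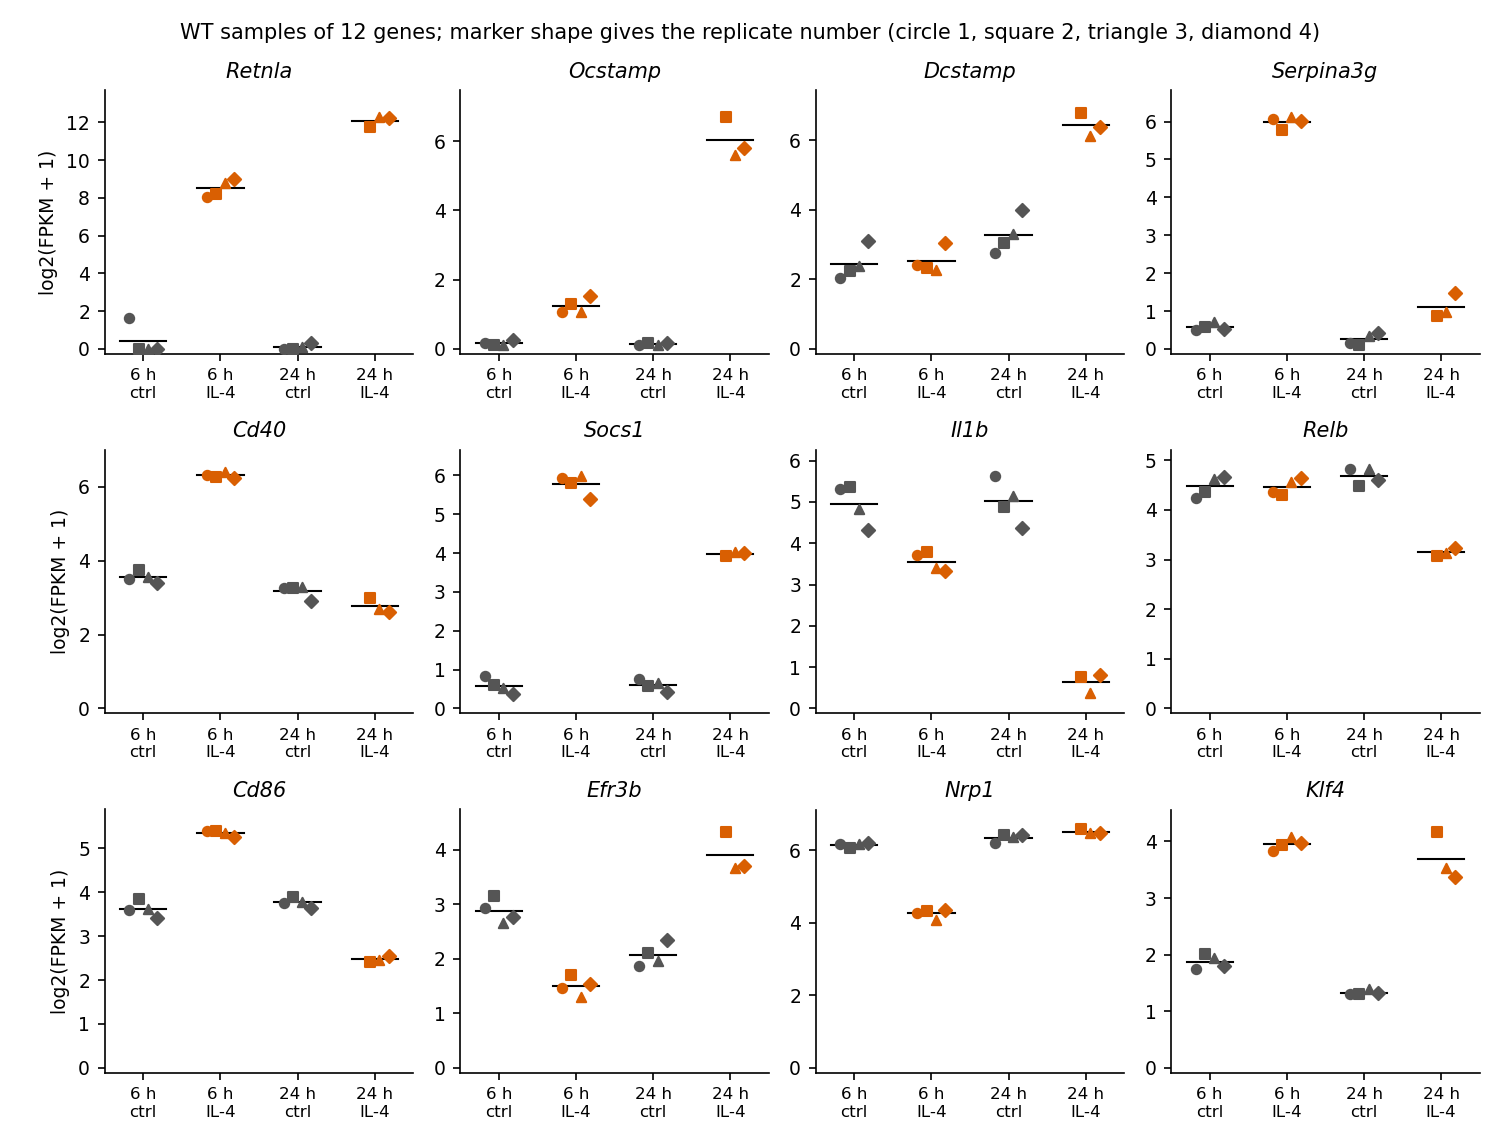
Level of 12 genes in log2(FPKM + 1) (vertical axis) in the WT control (grey) and IL-4 (orange) samples at 6 h and 24 h, each point 1 sample, its shape the replicate number, and each line the group mean. Ocstamp and Retnla show a higher IL-4 level at 24 h, Serpina3g and Cd40 an IL-4 level that returned to or near that of the controls, and Cd86 IL-4 samples above the controls at 6 h and below them at 24 h.

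Late rises held fusion and matrix genes, among others. Mt3, a metallothionein, read 0.127 to 0.312 FPKM with IL-4 at 6 h and 8.84 to 14.2 at 24 h, where 3 of the 4 controls were listed at 0, and Phospho1, a phosphatase, 0.667 to 0.811 and 14.3 to 26.3 FPKM, although 85.4% of the 50-base words of Phospho1 are shared with other genes. Among 20 fusion genes tested, 3 were called and all 3 moved upwards (15%, against 2.91% of all loci), with a list median of 0.14; Dcstamp and Mmp12 were late and Ocstamp grew, and 5 were called in the fit of the 15 WT samples alone. Dcstamp, the fusion receptor that works with Ocstamp, read 4.33, 3.99, 3.86 and 7.24 FPKM with IL-4 at 6 h, within the control range of 3.11 to 7.63. At 24 h it read 108.4, 68.7 and 82.9 FPKM against 5.75 to 14.8 in the controls. The IL-4 samples stood apart from the controls only at 24 h, and the change was 3.09 ± 0.95 (adjusted p = 0.0122). Mmp12, the macrophage elastase, overlapped its controls at 6 h (44.4 to 71.3 against 50.4 to 82.2 FPKM) and reached 1208, 1105 and 1252 FPKM at 24 h, where the controls read 94.6, 114.2, 123.6 and 286. Its change of 3.29 ± 1.14 (adjusted p = 0.0276) lost the call when 24 h IL-4 replicate 2 or 4, or 24 h control replicate 1, was left out. The call was also lost without WT replicate 4 at 6 h and 24 h, with values of 3.10 to 3.63 over all alternatives.

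In the list of 25 matrix, protease and TGF-beta genes, 9 moved upwards and 1 downwards (40% called, against 6.19% of all loci), with a list median of 0.63. Of these, 7 were late rises, and the 10 calls became 6 without 24 h IL-4 replicate 2. Mmp19, another metalloprotease, rose from 9.01 to 14.4 FPKM with IL-4 at 6 h to 102.4, 137.2 and 183.3 at 24 h, and its change was 3.08 ± 0.43. Plaur, the urokinase receptor, stood at 18.5 to 25.8 FPKM with IL-4 at 6 h and 130 to 155.5 at 24 h, against 22.8 to 33.8 in the 24 h controls. The collagenase Mmp13 (change 2.07), Plau (urokinase, 1.14), Timp1 (a metalloprotease inhibitor, 1.23) and Fn1 (fibronectin, 1.12) were late rises as well. F10, coagulation factor X, was called at both times and grew by 1.61, a call lost with a pseudocount of 0.1. Thbs1, which encodes the matrix protein thrombospondin-1, went the other way: its fall grew from -2.96 to -4.08, a growth that missed the 2-fold limit under quantile normalization.

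Several named genes of other lists rose late or grew. Itgax, the integrin alpha chain CD11c, read 14.8, 16.6, 15.9 and 22.4 FPKM with IL-4 at 6 h and 287.6, 207.6 and 225.1 at 24 h, while the 24 h controls read 6.09 to 16.8. The IL-4 groups were apart from their controls at both times, and the response grew by 2.94 ± 0.78 (adjusted p = 0.00366). Ccl22, a ligand of the chemokine receptor CCR4, went from 4.23 to 7.24 FPKM with IL-4 at 6 h to 42.2 to 75.5 at 24 h, a growth of 2.70 ± 0.30. Ccl17, the other CCR4 ligand, was listed at 0 in every 24 h control and its response went from 0.51 to 1.56, which was no longer called without 6 h IL-4 replicate 4. Chemokines and their receptors as a list were divided, with 4 upward and 4 downward calls among 26 (30.8%, against 6.19% of all loci), of which Ccl22, Ccr1 and Ccl17 were late or growing rises. Psat1, an enzyme of serine synthesis, read 27.8 to 47.5 FPKM with IL-4 at 24 h against 4.08 to 5.40 in the controls, having overlapped them at 6 h. Asns (asparagine synthetase) had a late rise with a change of 1.54 that lost its call without 24 h IL-4 replicate 2, and the glycolytic genes Hk2 and Pgam1 had late rises with changes of 1.07 and 1.13, the call of Hk2 being lost without the same sample. The glycolysis and hypoxia list held 4 upward and 1 downward calls among 27 genes (18.5%, against 6.19% of all loci). They became 2 calls without 24 h IL-4 replicate 2 and 6 without replicate 3. Part of the Pgam1 sequence is shared with pseudogenes (36.2% of its 50-base words).

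The change of the cholesterol synthesis genes came with a fall in the controls. Of 24 genes tested, 15 moved upwards and 0 downwards (62.5%, against 2.91% of all loci upwards), all 15 as late rises, and all 24 changes were positive, with a median of 1.20. Sqle, squalene epoxidase, read 13.8 to 16.8 FPKM with IL-4 at 6 h, just above the controls (11.3 to 13.5). At 24 h the controls read 3.97, 4.03, 4.78 and 4.03 FPKM and the IL-4 samples 38.4, 27 and 24.5. The change of Sqle was 2.28 ± 0.31, of which the IL-4 samples contributed a rise of 0.93 and the controls a fall of 1.35. Idi1, an isomerase of the pathway, showed the same arrangement: the controls went from 9.3 to 11.4 FPKM at 6 h to 2.4 to 3.11 at 24 h, and the IL-4 samples from 12.1 to 15.5 to 26.9, 16.4 and 13. Its IL-4 samples were above the controls at both times (change 1.92 ± 0.41, adjusted p = 0.000433), and 25.3% of its 50-base words are shared with other genes. Between 6 h and 24 h the controls fell in all 24 genes (median -0.74, 8 called downwards against 0.256% of all loci), whereas the IL-4 samples had a median shift of 0.39 and 0 calls in either direction. In 23 of the 24 the shift of the controls was the larger. The count of 15 ranged from 12 to 17 when single WT samples were left out, 12 being the value without 24 h IL-4 replicate 2.

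A larger shift in the controls was uncommon among the loci with a called change. Over all tested loci 34 shifted in the controls between 6 h and 24 h (0.311%) and 871 in the IL-4 samples (7.97%). Of the 676 loci with a called change, 515 were called in the IL-4 samples and 12 in the controls, and the shift of the controls was the larger in 36. Over all 10929 tested loci, called or not, it was the larger at 2882. The controls also fell in all 37 cell cycle genes (median -0.82) and in all 45 interferon-stimulated genes (median -0.65).

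**Figure D3:**
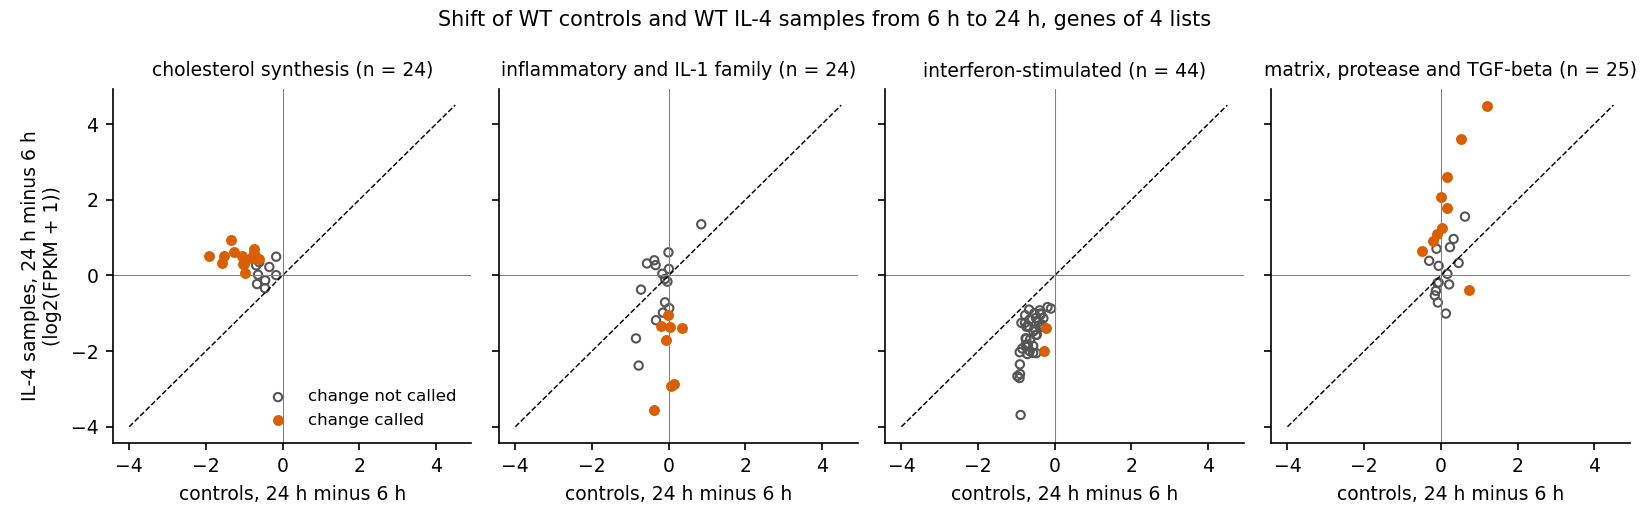
Shift between 6 h and 24 h in the control samples (horizontal axis) and in the IL-4 samples (vertical axis), in mean log2(FPKM + 1), for the genes of 4 lists (44 interferon-stimulated genes, leaving out Ly6e, which was listed at 0 in a sample). Filled points had a called change, and the dashed line marks equal shifts. Cholesterol synthesis genes lie at negative control values, while inflammatory genes with a called change lie at negative IL-4 values.

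Inflammatory genes and NF-kB factors that changed did so downwards, by different routes. Of 24 inflammatory and IL-1 family genes, 8 moved downwards and 0 upwards (33.3% called, against 3.28% of all loci downwards), with a median change of -0.82. Il1b, Osm and Nlrp3 were late falls, Cd40, Il1rap and Ptgs2 were faded rises, Cd86 turned round, and Icam1 was called at neither time. The IL-4 samples of the list shifted by a median of -0.93 against -0.10 in the controls. Nlrp3, the sensor of the inflammasome that processes IL-1beta, averaged 9.61 FPKM with IL-4 at 6 h against 15.2 in the controls, and 3.21 against 13.1 at 24 h. Its change of -1.14 was called, and missed the 2-fold limit under quantile normalization. Osm, the cytokine oncostatin M, read 5.05 to 6.99 FPKM with IL-4 at 6 h, above 3.49 to 4.69 in the controls, and 1.45 to 1.76 at 24 h, below 4.84 to 6.02. Only the 24 h response was called, so that Osm was placed with the late falls (change -1.73 ± 0.17). Cxcl2, a neutrophil chemokine, had a change of -1.32.

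Of 19 NF-kB subunits and inhibitors, 5 moved downwards and 0 upwards (26.3%, against 3.28% of all loci downwards), with a median change of -0.73; Relb and Nfkb2 were late falls, Rel was a faded rise, and Map3k8 and Nfkbia were called at neither time. Relb, a subunit of the non-canonical pathway, read 19.4, 18.8, 22.6 and 23.9 FPKM with IL-4 at 6 h against 18 to 24.4 in the controls. At 24 h it read 7.43, 7.82 and 8.44 FPKM against 27.1, 21.3, 27.4 and 23.3 in the controls. IL-4 and control samples overlapped at 6 h and were apart at 24 h, and the change was -1.51 ± 0.21 (adjusted p = 4.88e-07). Nfkb2, its partner subunit, fell late by 1.16 with a change of -1.31. Nfkbia, the inhibitor IkB-alpha, changed by -1.04, which fell short of 2-fold under 5 of 26 alternatives, and Map3k8, a kinase upstream of ERK, by -1.27. Rel, the subunit c-Rel, had responses of 2.12 at 1 h, 1.25 at 6 h and 0.23 at 24 h, its change losing the call under 10 of 26 alternatives. The list held 3 calls in place of 5 under quantile normalization and under median-ratio scaling.

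Marco, a scavenger receptor for bacteria and particles, read 10.1 to 12.9 FPKM with IL-4 at 6 h, below the controls (12.7 to 19.9) with a slight overlap, and 1.20, 1.45 and 2.52 at 24 h against 16.2 to 45.9. Its change was -3.09 ± 0.43. Tmem176b and Ms4a6c, membrane proteins of myeloid cells, changed by -2.95 each, although 51.4% of the 50-base words of Ms4a6c are shared with neighbouring family members. Spic, a transcription factor of red pulp macrophages, changed by -2.17 and Apoe, the apolipoprotein E that macrophages secrete, by -1.02, the last losing its call under 8 of 26 alternatives. The change of Spic came with a rise in its controls, which read 2.21 to 7.75 FPKM at 6 h and 8.25 to 14.6 at 24 h. Its IL-4 samples read 2.80 to 5.38 FPKM at 6 h and 0.827 to 2.48 at 24 h. Late falls were found in markers of other cell types as well: S100a8, which encodes a calprotectin subunit of neutrophils, averaged 150.6 FPKM with IL-4 against 148.4 in the controls at 6 h and 96 against 222.2 at 24 h (change -1.24), and Cd79b changed by -1.31. Over the 9 neutrophil genes the median change was -0.71. Their part in the late falls was not tested.

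The interferon-stimulated genes stood low with IL-4 at 24 h, but few had a called change of response. Of the 45 tested, 27 were called downwards at 24 h (against 511 of all 10929 loci) and 5 at 6 h (against 264). From 6 h to 24 h, 31 shifted downwards with a call in the IL-4 samples (against 539) and 0 in the controls. Among 45 tested, Oas2, a sensor of double-stranded RNA, and Parp14, an ADP-ribosyltransferase, had called changes, both downwards (4.44%, near the 3.28% of all loci), while 44 of the 45 changes were negative with a median of -0.95. The mean level of the list, in log2(FPKM + 1), was taken without Ly6e, which was listed at 0 in a sample. It was 5.72, 5.74, 5.36 and 5 in the 6 h controls and 5.17, 5.16, 4.96 and 4.32 with IL-4. At 24 h it was 5, 4.86, 4.87 and 4.70 in the controls and 3.61, 3.19 and 3.07 with IL-4. The groups were apart at 24 h, and replicate 4 was the lowest of each group at both times. Irf7, the interferon regulatory factor with the largest change of the list, averaged 397.4 FPKM with IL-4 at 6 h and 31.4 at 24 h, but its change of -2.80 ± 1.22 did not pass (adjusted p = 0.0821). It was called in the fit of the 15 WT samples alone and with a replicate block. The spread used here comes from all 53 samples, and with the spread of the 15 WT samples alone 18 of the 45 were called in place of 2. Parp14 lost its call under 5 of 26 alternatives.

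**Figure D4:**
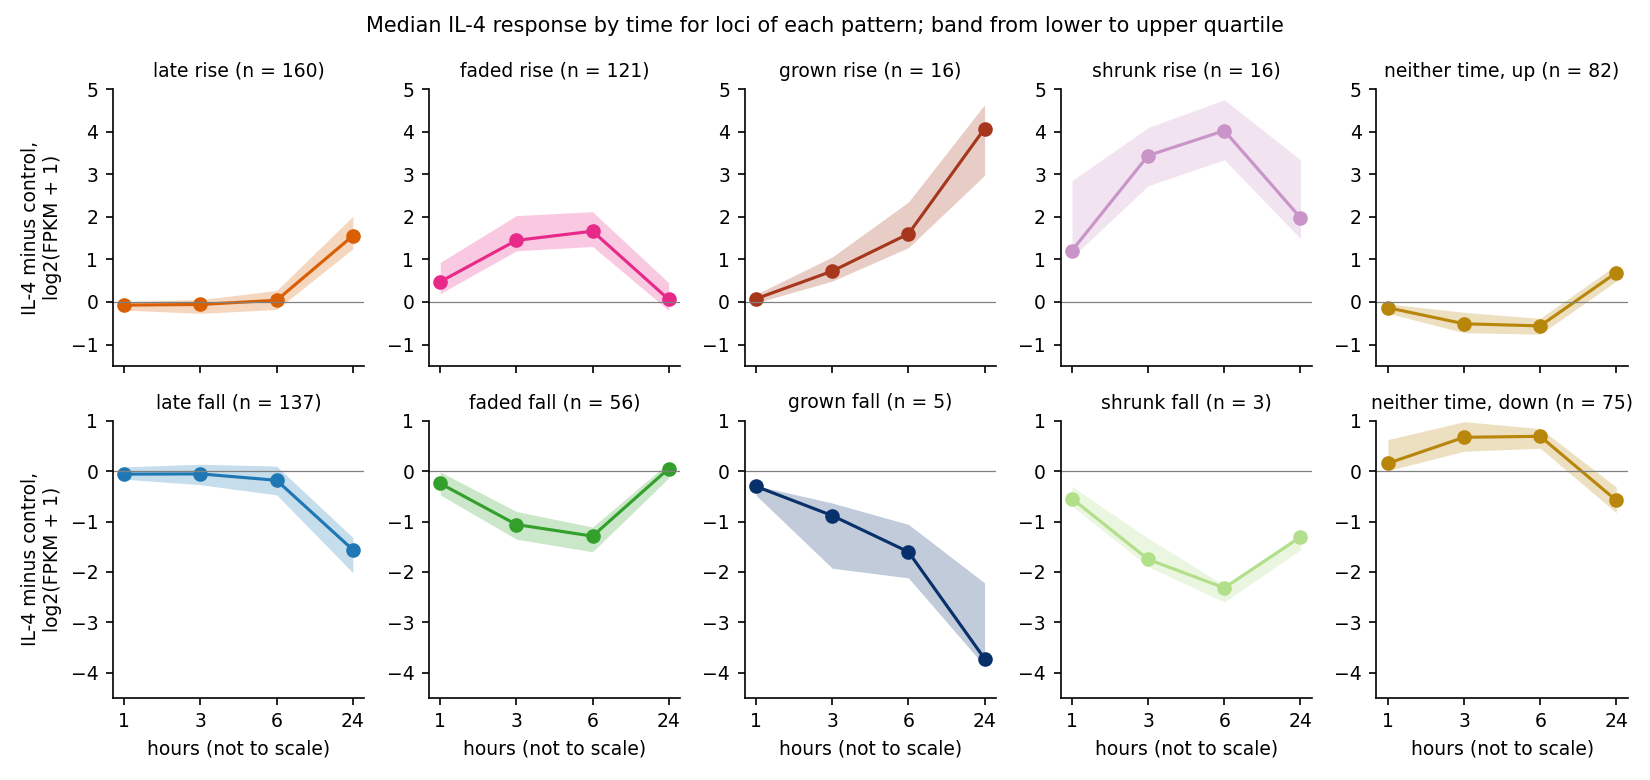
Median response (points) and span from the lower to the upper quartile (bands) at 1, 3, 6 and 24 h of IL-4, in mean log2(FPKM + 1) of IL-4 minus control samples, for the loci of each kind of change but the 5 that turned round; hours are not to scale. Faded and shrunk rises are highest at 6 h, whereas late rises and falls stay near 0 until 6 h.

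The 1 h and 3 h group means do not enter the change of response, although these samples share the estimate of the spread. Late and faded responses are told apart by the 6 h call, which lies close to 3 h in time. Of 297 late responses, 4 were called at 1 h (1.35%, against 1.52% of all loci) and 10 at 3 h (3.37%, against 3.93%), with median responses of the late rises of -0.07, -0.06, 0.04 and 1.55 at 1, 3, 6 and 24 h. Of 177 faded responses, 33 were called at 1 h and 133 at 3 h (75.1%). The faded rises had medians of 0.48, 1.45, 1.66 and 0.06 at the 4 times, and the faded falls -0.24, -1.06, -1.29 and 0.05. The 16 rises that shrank were all called upwards at 3 h (against 2.64% of all loci), with medians of 3.44 at 3 h and 1.98 at 24 h. Of the 137 faded or shrunk rises, 7 had their highest response at 1 h, 45 at 3 h and 85 at 6 h. Those 7 included Socs1, Ch25h (cholesterol 25-hydroxylase), the transcription factors Nfil3, Ahr, Rel and Hlx, and Btbd3.

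Among faded rises, Serpina3g, which encodes a serine protease inhibitor, had the largest change. It read 0.425 to 0.627 FPKM in the 6 h controls and 66.1, 53.8, 69.2 and 63.3 with IL-4. At 24 h the IL-4 samples read 0.837, 0.951 and 1.80 FPKM and the controls 0.0771 to 0.338. The IL-4 samples were still above the controls at 24 h without overlap, and the change was -4.56 ± 0.33 (adjusted p = 1.16e-13). Serpina3g shares 15.5% of its 50-base words with neighbouring genes of its family, so its level is less certain than those of single-copy genes. Rasgrp1, an activator of Ras, went from 14.2 to 18.8 FPKM with IL-4 at 6 h to 0.406 to 0.731 at 24 h (change -3.49 ± 0.30). Pecam1, the adhesion molecule PECAM-1, stood at 14.3 to 19 FPKM with IL-4 at 6 h, against 1.19 to 1.71 in the controls. At 24 h the IL-4 samples (2.96 to 3.29) lay below the controls (3.53 to 5.05). Its controls shifted by 1.10 between the 2 times, which was called upwards. Pecam1 is also an endothelial marker, and the other 3 endothelial markers were below 1 FPKM in all 15 samples.

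Cd40, a receptor for T cell help, read 78.7, 76.8, 84.4 and 74.6 FPKM with IL-4 at 6 h, about the same in each sample, against 9.52 to 12.5 in the controls. At 24 h it read 6.92, 5.48 and 5.16 FPKM against 6.49 to 8.79. The response was 2.76 ± 0.30 at 6 h and -0.41 ± 0.32 at 24 h, with overlapping groups at the later time, and the change was -3.17 ± 0.44 (adjusted p = 3.97e-07). Mrc1, the mannose receptor, averaged 671.4 FPKM with IL-4 at 6 h and 228.3 at 24 h, against 109.1 and 126 in the controls. Clec10a, a galactose-binding lectin, read 170 to 213.5 FPKM at 6 h and 36.8 to 47.8 at 24 h, the latter still above all controls (27.8 to 33.2).

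Ch25h faded earlier: its response of 4.68 at 1 h fell to 3.58 by 3 h, 2.12 by 6 h and -0.13 by 24 h. Its IL-4 samples read 3.9 to 11.5 FPKM at 6 h and 0.0693 to 0.32 at 24 h, where they overlapped the controls (0.0939 to 0.41). With a pseudocount of 0.1 its change was -3.57 in place of -2.25 and was not called, nor was it without WT replicate 4 at 6 h and 24 h. Hlx, a homeobox factor, went from 1.94 at 1 h to 1.15 at 6 h and -0.69 at 24 h, and Ahr, the aryl hydrocarbon receptor, from 2.99 at 1 h to -0.19 at 24 h.

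Signal-path genes of IL-4 itself moved downwards where they moved at all. Of 28 genes of the IL-4 receptor, JAK, STAT and SOCS list, 5 moved downwards and 0 upwards (17.9%, against 3.28% of all loci downwards), and 25 changes were negative with a median of -0.44. Il4ra, the receptor's binding chain, read 39 to 49.9 FPKM with IL-4 at 6 h against 17.8 to 20.5 in the controls, and 13.9 to 15.7 at 24 h against 21.8 to 30. IL-4 samples thus lay above the controls at 6 h and below them at 24 h, although the 24 h response of -0.74 was not called. Jak2, a kinase of cytokine receptors, had a response of 1.76 at 6 h and 0.71 at 24 h. Socs1, which inhibits JAK kinases, read 59.7, 54.5, 62.8 and 41 FPKM with IL-4 at 6 h and 14.1, 15.2 and 15.1 at 24 h. The controls of both times read 0.292 to 0.792 FPKM, so that the IL-4 samples remained apart at 24 h, and the response shrank by 1.82 ± 0.39 (adjusted p = 0.000396) from a height of 5.90 at 1 h. Cish, a related inhibitor, went from 37.2 to 47.7 FPKM to 15.1 to 18.6, and Socs2 from a mean of 6.26 to 2.91, the call of Socs2 being lost under 12 of 26 alternatives. The list held 3 calls under median-ratio scaling.

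The 26 tested genes of alternative polarization did not move together. They held 7 upward and 9 downward changes (61.5% called, against 6.19% of all loci), a median of -0.23, and responses at 6 h and 24 h whose medians were 2.64 and 2.85. Growing or late were Retnla, Ear11, Ccl22, Chi3l3 (Ym1), Chi3l4, Fn1 and Ccl17. Chi3l3 grew by 1.77, with 26.9% of its 50-base words shared with a near copy. Shrinking or fading were Ccl24, Socs1, Cish, Pdcd1lg2, Il4i1, Ch25h, Clec10a, Mrc1 and Tfec. Ccl24, the eosinophil attractant eotaxin-2, read 9.29 to 18.7 FPKM with IL-4 at 6 h and 1.41 to 3.69 at 24 h, against 0.297 to 0.663 in all controls. Pdcd1lg2, the inhibitory ligand PD-L2, averaged 36 FPKM at 6 h and 14.5 at 24 h (change -1.43 ± 0.11). Arg1 (arginase 1) averaged 67.6 and 65.4 FPKM with IL-4 at the 2 times, and Hbegf, an EGF family growth factor, 5.48 and 5.52; their changes of -0.05 ± 0.24 and -0.06 ± 0.26 were not called.

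A few genes reversed their response. Cd86, a costimulatory ligand for T cells, read 41.3, 41.1, 39.6 and 37.2 FPKM with IL-4 at 6 h against 9.72 to 13.3 in the controls, and 4.36, 4.52 and 4.89 at 24 h against 11.4 to 13.9. IL-4 samples were all above the controls at 6 h and all below them at 24 h. The response went from 1.73 ± 0.27 to -1.29 ± 0.29, a change of -3.02 ± 0.40 (adjusted p = 1.75e-07). Ly86, which encodes the MD-1 partner of a Toll-like receptor relative, stood at 519.1 to 687.5 FPKM with IL-4 at 6 h against 243.4 to 288.4, and at 106.1 to 134.1 against 253.9 to 319.4 at 24 h. Dab2, an endocytic adaptor, went from 290.8 to 416 FPKM to 44.7 to 75.6, with controls between 90.9 and 187.9 throughout. Kmo, an enzyme of tryptophan breakdown, went from a response of 1.19 to one of -1.10 at lower levels (means of 4.36 and 0.795 FPKM with IL-4).

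Efr3b, which helps to anchor a lipid kinase at the cell membrane, was the 1 gene called as turning from a fall to a rise. It read 1.76, 2.26, 1.45 and 1.9 FPKM with IL-4 at 6 h against 5.31 to 7.85 in the controls, and 18.9, 11.7 and 12 at 24 h against 2.64 to 4.10. The groups did not overlap at either time, and the change was 3.20 ± 0.33 (adjusted p = 8.34e-10). Between 6 h and 24 h its controls shifted by -0.80 and its IL-4 samples by 2.39.

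Faded falls recovered to the control level or near it. Nrp1, the coreceptor neuropilin-1, read 18.1, 19.1, 15.8 and 19.6 FPKM with IL-4 at 6 h against 65.2 to 72.3 in the controls. At 24 h the IL-4 samples read 95.2, 87 and 87 FPKM and the controls 72.2 to 84.3. The fall at 6 h was -1.89 ± 0.11, the 24 h response was 0.16 ± 0.12, and the change was 2.05 ± 0.16 (adjusted p = 8.58e-13). St3gal5, which makes the ganglioside GM3, read 4.26 to 6.87 FPKM with IL-4 at 6 h against 27.4 to 48.4, and overlapped the controls at 24 h (19.7 to 29.5 against 15.6 to 25.2). Fos, an AP-1 subunit, had its lowest response early (-2.18 at 1 h and -2.37 at 3 h), and its IL-4 samples read 28.2 to 44 FPKM at 6 h and 75.7 to 87.8 at 24 h, still below the controls (103.2 to 145.7). Among 13 genes of dual-specificity phosphatases, Sprouty and Spred, which restrain Ras and ERK, Spry2 (1.61) and Spred2 (1.10) moved upwards and none downwards. That is 15.4% called, against 2.91% of all loci upwards, and Spred2 lost its call without 24 h IL-4 replicate 2. Of 11 Krueppel-like factors, Klf9 grew from 1.15 to 2.65 and Klf10 went from -0.76 to 0.60, the called changes of that list (18.2%).

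To place these genes in sequence, the 300-base windows around RefSeq transcript starts (250 bases before and 50 after) were searched on both strands for 4 letter patterns. The STAT6-type pattern was TTC and GAA with any 4 bases between them, the spacing that STAT6 pairs favour, and the STAT-type pattern was TTC and GAA with any 3 bases between them, favoured by other STAT proteins. The interferon-type pattern was a pair of GAAA with any 2 bases between them, and the NF-kB-type pattern was GGGA and TTCC with any 2 bases between them. At least 1 window was matched for 8734 of the 10929 loci and for 65 of the 92 genes named by rule. The STAT6-type pattern was found in 6.66% of all loci with a window, in 9.01% of the faded or shrunk rises (10 of 111), in 6.5% of the late rises and in 8.41% of the late falls. The STAT-type pattern was found in 8.14% of all, in 7.21% of the faded or shrunk rises and in 11.2% of the late falls (12 of 107). The interferon-type pattern was found in 4.0% of all, in 10.3% of the late falls (11 of 107) and in 1.63% of the late rises, and the NF-kB-type pattern in 1.79% of all, in 5.61% of the late falls (6 of 107) and in 6.06% of the upward loci called at neither time (4 of 66). Over all 32851 windows of the table the shares were 6.95%, 8.3%, 3.44% and 1.47% in the order above. These are letter matches with no test, and the files hold no binding data for them. The stretches below show such matches in a growing rise (Retnla, Itgax), faded rises (Serpina3g, Rasgrp1), a shrunk rise (Socs1), a reversed gene (Dab2), a late fall (Cxcl2) and Nfkbia, each 100 bases on the strand of the gene, from RefSeq on GRCm38.p6, with the matched letters in capitals. The match is STAT6-type in Retnla and Itgax, STAT-type in Serpina3g, Rasgrp1 and Dab2, interferon-type in Socs1 and NF-kB-type in Cxcl2 and Nfkbia:
Retnla (chr16:48842419-48842518, + strand, match 145 bases before the start): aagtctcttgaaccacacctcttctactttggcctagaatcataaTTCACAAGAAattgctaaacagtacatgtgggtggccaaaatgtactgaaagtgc
Itgax (chr7:128129378-128129477, + strand, match 127 bases before the start): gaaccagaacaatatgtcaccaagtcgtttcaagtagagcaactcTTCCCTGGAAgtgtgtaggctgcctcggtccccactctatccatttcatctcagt
Serpina3g (chr12:104236047-104236146, + strand, match 33 bases before the start): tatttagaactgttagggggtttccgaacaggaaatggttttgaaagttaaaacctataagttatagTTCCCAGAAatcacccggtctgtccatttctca
Rasgrp1 (chr2:117342943-117343042, - strand, match 120 bases before the start): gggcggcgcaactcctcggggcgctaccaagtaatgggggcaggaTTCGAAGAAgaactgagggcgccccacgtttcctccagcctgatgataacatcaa
Socs1 (chr16:10785565-10785664, - strand, overlapping matches 83 and 77 bases before the start): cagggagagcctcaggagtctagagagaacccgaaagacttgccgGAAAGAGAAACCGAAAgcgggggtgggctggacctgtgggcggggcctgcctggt
Dab2 (chr15:6299672-6299771, + strand, match 72 bases before the start): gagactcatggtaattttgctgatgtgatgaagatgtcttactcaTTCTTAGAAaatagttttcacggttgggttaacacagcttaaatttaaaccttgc
Cxcl2 (chr5:90903757-90903856, + strand, overlapping matches on both strands, 97 and 96 bases before the start): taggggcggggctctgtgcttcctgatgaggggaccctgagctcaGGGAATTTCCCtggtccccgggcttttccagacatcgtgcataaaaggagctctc
Nfkbia (chr12:55492648-55492747, - strand, match 29 bases before the start): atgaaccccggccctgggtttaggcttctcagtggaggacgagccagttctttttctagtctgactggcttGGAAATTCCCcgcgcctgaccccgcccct

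The Stat6-/- samples gave a reading of the same change without the factor. With 2 samples per group, 0 loci had a called change in Stat6-/- cells by limma, 28 had an unadjusted p under 0.05, and 2 of these a 2-fold change. Without any change, a share of 0.05 of the 10929 loci would be expected to reach that p, which is far more than 28. The spread of the fit was thus wide for this contrast, and the count of 0 does not show that no locus changed. With a term for the replicate number in each genotype (replicate block) the count was 0 as well, while genotype differences numbered 758. Over the 676 loci the median size of the change was 0.075 in Stat6-/- and 1.35 in WT cells, and the largest in Stat6-/- was 0.81. The WT value is raised by the choice of these loci, each of which had at least a 2-fold WT change. The difference between the genotypes was tested itself: it was called at 434 of all loci (3.97%) and at 403 of the 676 (59.6%), which were chosen on the WT samples that enter both tests. By kind, it was called for 167 of the 297 late responses (56.2%), 123 of the 177 faded ones (69.5%) and 88 of the 157 called at neither time. The number over all loci went from 281 without replicate 1 of the Stat6-/- 24 h controls to 794 without replicate 2.

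Named genes followed this on the level of samples. Ocstamp in Stat6-/- cells read 0.147 and 0.55 FPKM with IL-4 at 6 h and 0.186 and 0.904 at 24 h, and the genotypes differed by 4.61 ± 0.36 (adjusted p = 7.67e-12). Serpina3g read 0.177 and 1.41 at 6 h and 0.145 and 0.477 at 24 h, where the WT samples had risen and returned. Cd86 with IL-4 read 14 and 30.9 at 6 h and 10.7 and 26.4 at 24 h, overlapping its Stat6-/- controls at both times (14.2 and 23.9, and 9.88 and 21.4). Sqle was lower in the Stat6-/- controls of 24 h too, at 3.01 and 3.84 against 6.06 and 13.4 at 6 h, and its IL-4 samples read 6.5 and 18.6 at 6 h and 4.27 and 4.42 at 24 h. Of the 24 cholesterol genes, 6 had a called genotype difference. Il1b varied widely between the 2 Stat6-/- samples of a group (15.2 and 91.5 FPKM with IL-4 at 6 h, 9.25 and 57.2 at 24 h), and its genotype difference of -3.39 ± 1.51 did not pass (adjusted p = 0.186).

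**Figure D5:**
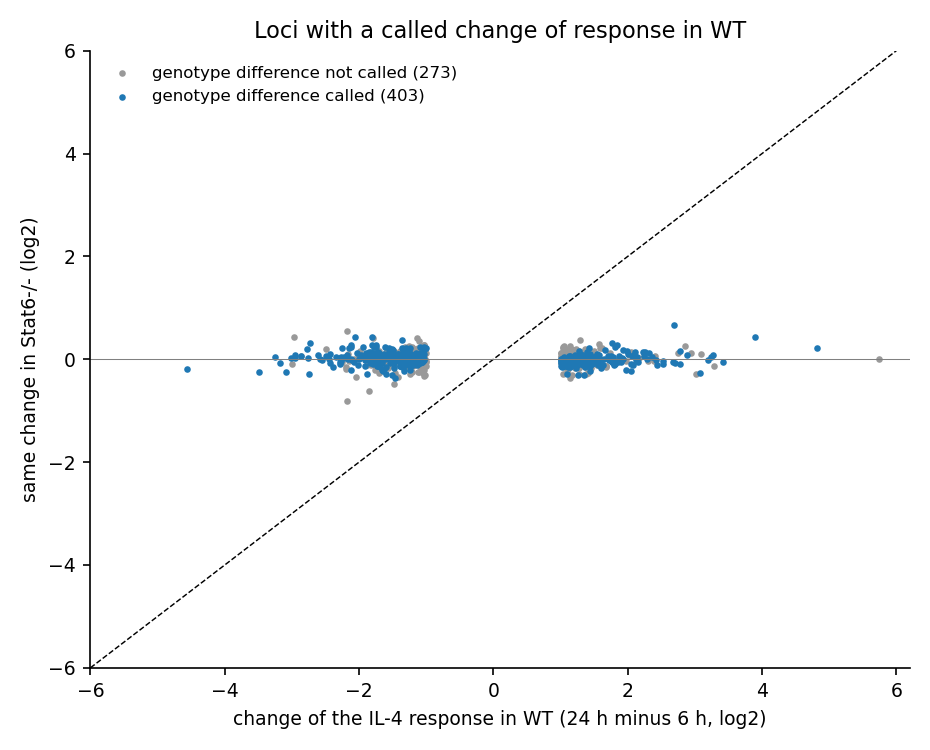
Change of the IL-4 response from 6 h to 24 h in WT (horizontal axis) and Stat6-/- macrophages (vertical axis), in log2(FPKM + 1), for the 676 loci called in WT. The 403 loci with a called genotype difference (blue) and the other 273 (grey) are marked apart, the dashed line marks equal changes, and all Stat6-/- values lie between -0.81 and 0.81.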

How the data were processed

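RNA-seq (unstranded TruSeq, poly-A RNA) was deposited as 1 table per sample. Per the submitters' processing notes the authors used TopHat2 2.0.7, Cufflinks 2.0.2 and mm10, and the deposited values are FPKM per gene locus; the gene annotation is not given in the sources used here. FPKM holds no counts, so read depth and counting error are unknown, and a value of 0 may be a failed estimate. Values under 1e-05 (5053) were set to 0.

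Loci with at least 1 FPKM in 1 of the 15 WT samples were kept, and log2(FPKM + 1) was fitted by limma 3.58.1 (R 4.3.3) with trend, 18 group means over all 53 samples (35 residual degrees of freedom) and Benjamini-Hochberg adjustment over 10929 loci. The pseudocount understates changes of low loci. A call needs an adjusted p under 0.05 and a 2-fold change; ± is the standard error. No 2 samples were identical. In a test on simulated data over 10929 loci, 98% of 200 loci altered in the WT change of response were found, and 5 of 10729 unaltered loci were called. The altered loci had means over 5 FPKM in all 4 WT groups and changes of 1.5 to 4 in log2, and the errors were normal and independent. The test therefore does not cover lower loci, smaller changes or samples that correlate by replicate number.

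Genes were named by rule (for each kind of change the 4 largest called changes whose IL-4 samples lay apart from the controls, with a mean of at least 5 FPKM in a group; for each list up to the 4 largest called changes in each direction; and Retnla, Ocstamp, Il1b and Klf4). The rule, the 21 gene lists and 9 marker lists were chosen with earlier results of these data known, and 21 further genes after their values were seen (Kmo, Emr1, S100a8, Cd79b, Blnk, Fgr, Donson, Steap3, Myo1f, Socs2, Arg1, Hbegf, Pdcd1lg2, Mrc1, Nlrp3, Hlx, Nfil3, Ahr, Rel, Irf7 and F10); members of a list named only as called are from the list. Lists are described by counts and medians, with no set test. Alternatives were a fit of the compared samples alone, a replicate block, pseudocounts of 0.1 and 0.5, other filters, quantile and median-ratio scaling, a linear model per gene, no fold limit, and leaving out single samples. Shared sequence was counted as 50-base words of a gene's transcripts that occur in other genes of the mouse GENCODE release M21. Python 3.11.15, pandas 2.3.3, numpy 2.4.6 and matplotlib 3.10.9 were used. Some named genes are not reported here.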

Additional observations from a re-analysis of the deposited data

Results flagged for a closer look

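Single samples that stood apart from the other 3 of a group of 4 were found in 19 of 330 groups of named genes (5.76%), where chance gives about 1 in 20. In 13 of the 19 the sample was replicate 4. The gap to the nearest sample, as a share of the group's range, passed the 95% limit of 0.829. Replicate 4 was the highest 24 h control for Plaur (0.901), Itgax (0.856), Mmp12 (0.848) and Mt3 (1.0, the other 3 samples being equal), the highest 6 h IL-4 sample for Mmp19 (0.945), Dcstamp (0.862) and Mt3 (0.951), and the highest 6 h control for Marco (0.918) and Hbegf (0.945). Replicate 4 was the lowest 24 h control for Cd40 (0.887) and Arg1 (0.841) and the lowest 6 h IL-4 sample for Oas2 (0.901) and Il10 (0.871). Other samples apart were replicate 1 for Retnla in the 6 h controls (1.0, the other 3 being listed at 0) and for Gpr162 in the 24 h controls (0.834), replicate 2 for Map3k8 (0.862) and Nlrp3 (0.853) in the 6 h controls, and replicate 3 for Scd2 (0.914) and Sqle (0.918) in the 24 h controls. Without replicate 4 in the 4 WT groups of 6 h and 24 h, an alternative chosen after seeing the data, 690 loci had a called change in place of 676.

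The response differed between 6 h and 24 h at 676 loci, and its change differed between WT and Stat6-/- cells at 434, both tested in limma with adjusted p under 0.05. The genotype difference (WT minus Stat6-/- change, log2) was called for 65 of the 111 named genes. It was downward for Serpina3g (-4.37), Pecam1 (-3.29), Rasgrp1 (-3.25), Cd40 (-3.10), Cd86 (-3.05), Tmem176b (-3.04), Ms4a6c (-2.98), Marco (-2.85), Ccl24 (-2.48), Emr4 (-2.40), Ly86 (-2.39), Ier3 (-2.25), Snn (-2.24), Kmo (-2.24), Apoc2 (-2.23), Dab2 (-2.20), Fgr (-2.01), Gpr162 (-1.995), Clec10a (-1.91), Donson (-1.87), Hlx (-1.76), Ahr (-1.71), Relb (-1.69), Osm (-1.59), Pdcd1lg2 (-1.49), Nfil3 (-1.49), Nfkb2 (-1.39), Emr1 (-1.36), Batf (-1.36), Nfkbia (-1.29), Map3k8 (-1.21), Cdkn1a (-1.14), Nlrp3 (-1.13), Pdgfc (-1.13), Cish (-1.10), Il15 (-1.04) and Jak2 (-1.04). It was upward for Ocstamp (4.61), Mt3 (3.48), Retnla (3.45), Mmp19 (3.34), Efr3b (3.21), Ear11 (3.19), Phospho1 (3.18), St3gal5 (2.62), Plaur (2.54), Psat1 (2.31), Nrp1 (2.29), Sqle (2.27), Scd2 (2.14), Ccr1 (2.13), Ccl22 (2.03), Mmp13 (1.995), Chi3l3 (1.82), Pcna (1.75), Steap3 (1.49), Blnk (1.48), Klf9 (1.48), Tnfsf12 (1.45), Myo1f (1.44), Spred2 (1.39), Klf10 (1.36), Ccl9 (1.23), Hk2 (1.16) and Ccl17 (1.00). These genes were mostly chosen for their WT change, which enters the difference. Called in WT but without a called genotype difference were, among others, Il1b, Socs1, Il4ra, Ch25h, Itgax, Dcstamp and Mmp12, whose standard errors of the genotype difference ran from 0.59 to 1.93.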

How the results depend on the processing

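Leaving out single WT samples gave 627 to 696 called changes in place of 676, and 273 to 321 late, 163 to 187 faded and 5 to 6 reversed responses. Shifts of the controls, 34 in the main fit, ranged from 17 (without 24 h control replicate 4) to 83 (without 24 h control replicate 2), and genotype differences, 434 in the main fit, from 281 to 794 (without replicate 1 or 2 of the Stat6-/- 24 h controls). In the fit of only the samples compared, responses that grew numbered 34 in place of 21 and control shifts 66. With a pseudocount of 0.1 there were 450 late, 46 grown, 40 shrunk and 14 reversed responses and 137 control shifts; a pseudocount of 0.5 gave 62 control shifts. Without the fold limit 3082 changes were called (1226 up, 1856 down), with 1335 late, 660 faded, 450 grown, 235 shrunk and 341 reversed responses, 61 at neither time, 5033 shifts of IL-4 samples, 776 of controls, 901 genotype differences, and 1036 and 3207 responses at 1 h and 3 h. Without WT replicate 4 at 6 h and 24 h, an alternative added after seeing the data, 17 control shifts were called. The cause of these moves was not tested beyond the settings' own construction.

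Quantile normalization left 662 calls, of which 612 were shared with the main fit, and 53.6% of them were upward against 47.0%. No named gene reversed, while 26 of 111 lost a call or, for Arg1 and Hbegf, changed the sign of an uncalled value under at least 1 of 26 alternatives. Cd36 (1.46) lost its call under 16 and Apoe under 8, and Irf7 alone gained one, under 2.

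The study describes its WT samples as separate animals, but no source says that a replicate number marks the same animal in each group. Among the WT samples of 6 h and 24 h, deviations of same-numbered samples correlated with a mean r of 0.242 over 21 pairs of samples. The lowest was -0.0416 and 18 were above 0.1, against a mean of -0.0803 for 63 pairs with different numbers. The Stat6-/- samples were not examined in this way. With a replicate block 782 changes were called, 662 of them shared with the main fit, with 33 grown responses, 71 control shifts and 758 genotype differences, and 16 of 45 interferon-stimulated genes in place of 2, 7 of 18 iron genes in place of 2, 7 of 37 cell cycle genes in place of 3, 13 of 26 chemokine genes in place of 8 and 5 of 20 fusion genes in place of 3. Changes in low loci are limited by FPKM values near 0 and by the 3 IL-4 samples of 24 h.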

Other observations

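The 157 loci called at neither time held responses of moderate size that crossed 0. In 110 of them (70.1%) the IL-4 samples lay all to one side of the controls at 6 h and all to the other side at 24 h, as they did at 550 of all tested loci (5.03%). The 157 loci were chosen by these same values, so the crossing and the higher share are in large part built in. The upward group of 82 had median responses of -0.13, -0.51, -0.56 and 0.69 at 1, 3, 6 and 24 h, and the downward group of 75 had 0.16, 0.68, 0.69 and -0.58. The genes named here were chosen after their values were seen. Blnk, an adaptor of B cell and macrophage signalling, averaged 20.7 FPKM with IL-4 against 36.9 in the controls at 6 h, and 70.1 against 38 at 24 h (change 1.66 ± 0.11). Myo1f, a myosin of leukocytes, averaged 119 against 211 FPKM at 6 h and 323.7 against 204.8 at 24 h. Steap3, an endosomal iron reductase, changed by 1.57. Fgr, a Src family kinase of myeloid cells, went from 20.8 against 11.5 FPKM to 5.96 against 12.7 (change -1.77 ± 0.18), and Donson, a replication fork protein, from 10.9 against 5.7 to 2.56 against 5.74.

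Gene lists not yet described are given for completeness, to be read beside the 6.19% called over all loci (2.91% upwards and 3.28% downwards). Stress and unfolded protein response genes (23 tested), ribosome biogenesis (22) and MHC class II presentation (10) had 0 called changes in limma, with medians of 0.26, 0.24 and -0.07. The cell cycle list held 2 upward and 1 downward calls among 37 genes (8.11%). Both its control and its IL-4 samples were lower at 24 h, with median shifts of -0.82 and -0.99. Its 3 calls became 5 without 6 h control replicate 4 and 6 in the fit of the 15 WT samples alone. Among 23 AP-1, EGR and immediate-early genes 1 moved upwards and 2 downwards, among 28 genes of LXR, PPAR and lipid handling 3 each way, among 21 of arginine, polyamine and amino acid metabolism 3 upwards and 1 downwards, among 15 growth factors and cytokines 2 and 3, and among 18 of iron, heme and NRF2 0 and 2. In this last list 13 of the 18 changes were positive with a median of 0.62. The IL-4 samples of 10 genes shifted upwards with a call (against 332 of all 10929 loci), and 7 changes were called in the fit of the 15 WT samples alone.

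Some large values rest on samples listed at 0. At 24 loci a sample was listed at 0 in a group whose median was over 5 FPKM, and 1 of these loci had a called change. That was Snora69, a small nucleolar RNA locus that was listed at 0 in all 6 h IL-4 and all 24 h control samples and averaged 62.1 FPKM in the 6 h controls and 37.1 with IL-4 at 24 h. Dendritic cell markers were below 1 FPKM in all 15 samples for 6 of 7 genes, and the exception was Ccr7.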
